A study of Sorghum bicolor with 12 samples.

Results

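Leaf RNA of heat-shocked Sorghum bicolor seedlings was set directly against leaf RNA of seedlings under drought, with 3 arrays on each side. Plants were of the R16 variety and 14 days old after sowing when water was first withheld from the drought plants. The incubations came around 3 days after that. Heat plants were watered and incubated at 50°C for 3 h. Drought plants were left without water for 3 days and incubated at 28°C for the same 3 h. All incubations took place in the dark. The control arrays (watered, 28°C) and the combined-stress arrays (3 days without water, then 50°C), also 3 each, did not enter this comparison and served to place its results. The 3 youngest leaves were sampled and tissue was pooled within a treatment set. The study's methods call the 3 arrays of a group biological replicates, and the p-values measure the spread between these pools. Of the 28587 transcripts on the array, 22083 (77.2%) were compared, which are those whose spots were all well above background on the 3 heat arrays or on the 3 drought arrays. Of these, 20158 were well above background on all 6 arrays, 1032 met the rule through heat alone and 893 through drought alone.

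Heat shock unfolds proteins, and plant cells answer it through heat shock factors, which are transcription factors that switch on chaperones such as small heat shock proteins, HSP70, HSP90 and HSP101. Water loss raises abscisic acid, a hormone that acts through protein phosphatases of the 2C class (PP2C, which hold the pathway off in its absence) and through bZIP factors that bind abscisic acid response elements. Its known targets include late embryogenesis abundant (LEA) proteins and dehydrins, which protect cell contents during drying, and enzymes that make proline and surface wax.

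The 12 arrays lay on 3 slides with 1 array of each group per slide, so that arrays of the same replicate number shared a slide and are called a pair below. Between 76.6% and 81.3% of spots were well above background on the drought arrays and between 76.7% and 84.4% on the heat arrays, and no spot was saturated. Levels below are log2 of the background-corrected signal minus the 75th percentile of the array. A level of 0 is thus the brightness of a spot at that percentile, and the brightest transcript of an array lay at 7.89 to 8.18. Levels of different transcripts come from different probes and are not compared with each other. Most transcripts passed on all 6 arrays (20158 of 28587), so detection is only a weak check of tissue. All 6 arrays had the leaf transcripts annotated RBCS1A, RCA, LHCB6, PSBR, PPC1 and carbonic anhydrase well above background. Another, annotated PPDK (pyruvate orthophosphate dikinase), passed on the 3 drought arrays and on none of the heat arrays. Its signal was low without stress too, with mean levels of -5.35 in control, -5.17 in drought and -7.57 in heat. Whether it encodes the C4 form of the enzyme was not tested, so it is not read as a marker of C4 cells. In whole leaves, fewer cells of a type and less RNA per cell cannot be told apart.

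Of the transcripts tested, 28.2% were called different between the 2 stresses, with more of them higher in heat than in drought. limma, with the pair as a block, called 3268 transcripts higher in heat (14.8% of those tested) and 2962 higher in drought (13.4%), where a call needed more than a 2-fold ratio and an adjusted p under 0.05. The 3 heat arrays lay all above the 3 drought arrays in 5577 transcripts (25.3%) and all below them in 5720 (25.9%). Among the limma calls, the median log2 ratio of heat over drought was 1.90 for those higher in heat and -1.64 for those higher in drought, against -0.02 over all transcripts tested. A ratio of over 4-fold was reached by 1504 and 986 of these calls, and one of over 32-fold by 113 and 78. The rule of the study's methods, a ratio of over 2-fold in one direction in all 3 pairs, counted 2320 transcripts higher in heat (10.5%) and 1849 higher in drought (8.37%), and limma also called 2315 and 1847 of these. The balance between the directions depended on how arrays were scaled: 52.5% of calls were higher in heat, against 38.6% when arrays were scaled on spike-in RNA and 72.3% with another background correction (normexp), settings that moved the median of all transcripts from -0.02 to -0.31 and 0.35. Without replicate 1, 652 and 390 transcripts were called, against 3477 and 2960 without replicate 2 and 3290 and 2967 without replicate 3. Each of these fits leaves 2 pairs.

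**Figure D1:**
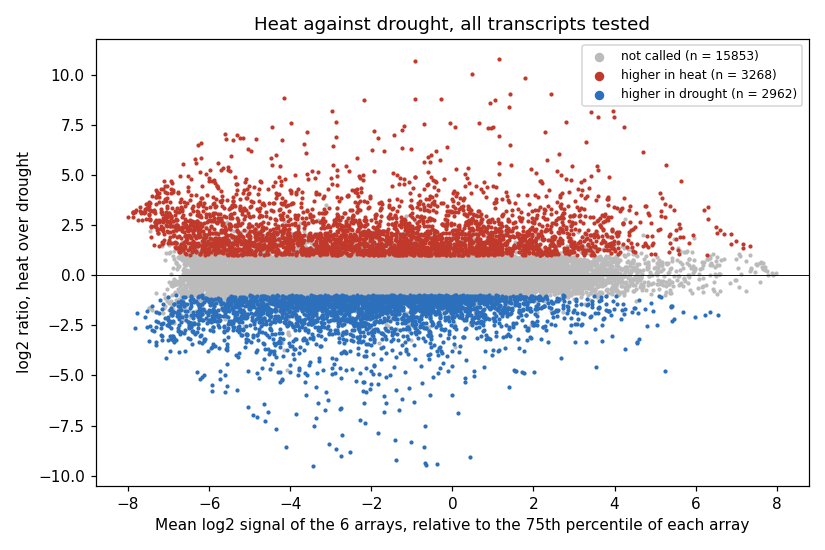
Each point is 1 of the 22083 transcripts tested, with its mean log2 level over the 6 heat and drought arrays on the horizontal axis and its log2 ratio of heat over drought on the vertical axis. Red points (3268) were called higher in heat and blue points (2962) higher in drought by limma.

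The spread between pairs sets what could be called. The median SD of a log2 ratio over the 3 pairs was 0.40, and the median half-width of its 95% interval was 0.63. Among transcripts well above background on all 6 arrays, 13696 did not pass the adjusted p, and for 6363 of these the interval lay within a 2-fold difference either way. For the rest a 2-fold difference was neither shown nor bounded. Spots of the same probe differed far less, with a median SD of 0.05 to 0.06 on probes spotted in duplicate. The drought arrays varied more than the heat arrays: the median SD over 3 arrays was 0.37 in drought and 0.26 in heat, and drought 2 and drought 3 correlated at 0.924 over transcripts, whereas each pair of heat arrays correlated at 0.98 or above.

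Small heat shock proteins, which hold unfolding proteins in solution, showed the widest separation. Of 24 transcripts so annotated, 23 were higher in heat, none was higher in drought, and the median log2 ratio was 7.36. This and the other gene lists were assembled from annotation of transcripts that the study found changed against control on these same arrays, so a list's direction is not independent evidence. Of the 2888 tested transcripts with such an identifier, 38.6% were higher in heat and 33.8% higher in drought, against 11.2% and 10.3% of the other 19195. The largest ratio among all named transcripts belonged to HSP22.0 (Sb06g017850.1). Its levels were -4.23, -3.41 and -5.07 on drought arrays 1 to 3 and 6.50, 6.17 and 6.96 on heat arrays 1 to 3. The groups did not overlap, and heat was 1757-fold higher (95% interval 704 to 4385, adjusted p = 0.0025). HSP21 (Sb07g028370.1), a chloroplast member, stood at -2.77, -1.83 and -1.68 in drought and at 6.59, 6.81 and 7.45 in heat, a log2 ratio of 9.05. HSP18.2 (Sb03g006870.1), of the cytosolic class, was already bright in drought at 4.15, 3.86 and 5.77 and reached 8.12, 7.99 and 7.95 in heat, close to the brightest level of those arrays. Its log2 ratio was 3.42 (2.24 to 4.61), and its call was lost without replicate 1 (3.15, adjusted p = 0.068). Several HSP18.2 transcripts are neighbours in the genome by their identifiers, so probes may share signal between copies. The 1 member without a call, a class P-related heat shock protein (Sb02g034760.1, named here after its values were seen), had levels of -3.08, -1.40 and -4.23 in drought and -1.96, -2.61 and -2.61 in heat. These overlapped, with a ratio of 0.51 (-1.08 to 2.10, adjusted p = 0.54) that turned to 1.37 and passed the test without replicate 2 (adjusted p = 0.028).

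The larger chaperones followed the same direction with smaller ratios. All 18 transcripts of the HSP70 family were higher in heat, with a median log2 ratio of 3.30, and 11 of them were called without replicate 1. Of 17 transcripts of the HSP90, HSP100 and HSP60 families, 16 were higher in heat (15 without replicate 1), with a median of 3.80. HSP101 (Sb03g034390.1), the chaperone that pulls proteins out of aggregates, stood at -6.58, -5.97 and -6.28 in drought and at 3.85, 3.82 and 5.55 in heat. The groups lay 10.68 apart on the log2 scale (9.53 to 11.83, adjusted p = 0.0022). A second transcript annotated HSP101 (Sb04g021960.1, also named after its values were seen) was the member without a call, at -6.47, -5.67 and -4.91 in drought and -5.21, -5.55 and -5.00 in heat, with overlapping groups and a ratio of 0.43 (-0.44 to 1.31). HSP90.1 (Sb06g000660.1), the heat-inducible cytosolic HSP90 of Arabidopsis, had levels of -4.17, -2.54 and -2.67 in drought and 6.43, 6.49 and 7.20 in heat, a ratio of 9.84. HSP81-2 (Sb02g028020.1), another HSP90, was bright in both groups, at 3.72 to 3.95 in drought and 6.91 to 7.33 in heat, and its ratio of 3.24 varied little over pairs (SD 0.12). Likewise the HSP70 with the brightest probe (Sb01g039530.1) had 5.59, 5.79 and 6.15 in drought and 7.91, 7.93 and 7.89 in heat. These heat levels were close to the brightest of those arrays (8.18, 8.15 and 8.12), and whether this limits the ratio was not tested. The ratio was 2.06 (1.5 to 2.63), and its call was lost without replicate 1 (1.94, adjusted p = 0.064). BIP1 (Sb01g010460.1), an HSP70 of the endoplasmic reticulum, was well above background on 1 drought array and on all heat arrays, with a measured ratio of 7.61.

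Co-chaperones, which hand clients to HSP70 and HSP90 or release them, were higher in heat in 28 of 32 cases, with a median log2 ratio of 2.67, and none was higher in drought. Without replicate 1 the count was 14. The largest ratio was that of a peptidyl-prolyl cis-trans isomerase (Sb10g012970.1), an enzyme that speeds folding at proline bonds, with -5.04, -4.30 and -4.22 in drought and 4.99, 5.34 and 6.16 in heat. This made it 1039-fold higher in heat (681 to 1584, adjusted p = 0.0020).

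Heat shock factors split. Of 10 transcripts, 9 were higher in heat and 1 was higher in drought. HSFA2 (Sb10g022340.1), a factor that prolongs the heat response in Arabidopsis, was at -0.17, 1.37 and -1.30 in drought and at 6.08, 6.53 and 7.26 in heat, a ratio of 6.65 (4.85 to 8.46, adjusted p = 0.0058). HSFA6B (Sb01g046350.1) had the largest ratio at 8.73, and was well above background on 2 of the 3 drought arrays. The 2 transcripts annotated HSFC1 lay in opposite directions. One (Sb10g021800.1) was at 1.45, 1.2 and 2.32 in drought and 3.22, 3.64 and 4.60 in heat, a ratio of 2.17 (1.57 to 2.76). The other (Sb04g008300.1) was at 2.03, 1.34 and 3.44 in drought and -2.78, -2.92 and -1.82 in heat, a ratio of -4.78 (-5.48 to -4.09, adjusted p = 0.0028). In neither did the groups overlap, and no alternative setting changed either call.

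**Figure D2:**
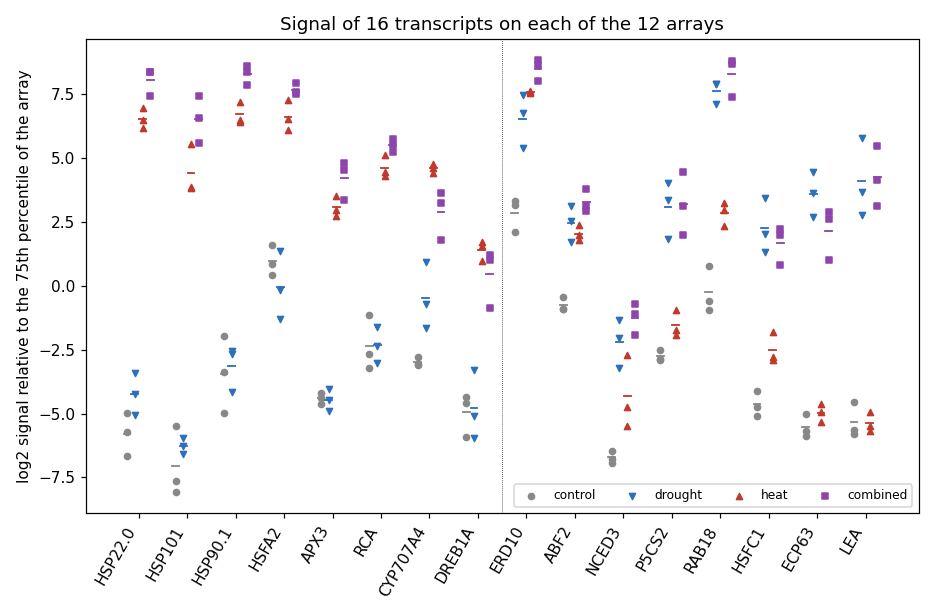
Log2 level of 16 transcripts (horizontal axis) on each of the 12 arrays, as 1 point per array with a bar at the mean of the 3 arrays of a group. The transcripts left of the dotted line were called higher in heat. Right of it, ERD10 was not called, although all its heat arrays lie above all its drought arrays. ABF2 has overlapping drought and heat arrays, and in P5CS2 to LEA all drought arrays lie above all heat arrays.

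LEA proteins and dehydrins made up the clearest group on the drought side. Of 21 transcripts, 16 were higher in drought, 1 was higher in heat and 4 were not called, with a median log2 ratio of -4.81. Without replicate 1, 10 were called higher in drought and none higher in heat. A LEA protein (Sb09g027110.1) had the largest ratio, with 3.69, 2.79 and 5.78 in drought and -4.95, -5.49 and -5.67 in heat. Drought was thus 701-fold higher (201 to 2444, adjusted p = 0.0036). ECP63 (Sb03g011090.1), another LEA protein, stood at 3.62, 2.70 and 4.45 in drought and at -4.61, -5.34 and -4.94 in heat, a ratio of -8.55. RAB18 (Sb09g018420.1), a dehydrin known to respond to abscisic acid, was near the top of the drought arrays at 7.88, 7.13 and 7.89 and had 3.26, 2.34 and 2.96 in heat, a ratio of -4.78 with an SD of 0.15 over pairs.

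Other members of the group departed from it. ERD10 (Sb04g032250.1), a dehydrin, was high in both stresses, with 6.76, 5.38 and 7.46 in drought and 7.56, 7.60 and 7.62 in heat. The ratio of 1.06 (-0.10 to 2.22) did not pass (adjusted p = 0.13), but did with all 12 arrays in the fit (0.029). SAG21 (Sb03g012940.1), a mitochondrial LEA protein of Arabidopsis, was higher in heat, at -2.03, -4.61 and 0.83 in drought against 1.45, 2.51 and 2.55 in heat. Its ratio of 4.10 had a wide interval (1.30 to 6.90, adjusted p = 0.043). It was not called without replicate 1 (4.42, adjusted p = 0.14), without a detection filter (0.065) or with normexp (0.050). For LEA transcripts that no heat array detected, only a bound can be given. In it, each array of the dim group was given its own value or, if that was smaller, the faintest level that passed as well above background on that array, and the mean of the bright group was divided by the mean of these. By this measure, LEA transcripts Sb01g021320.1 and Sb03g032380.1 were at least 9.94-fold and at least 13.9-fold higher in drought. Adjusted p-values beside a bound, here (0.0048 and 0.0099) and below, come from limma on the measured ratio and do not test the bound. With normexp neither transcript was called (adjusted p = 0.83 and 0.39). Taken relative to the control mean, the median of the LEA list was 5.92, 4.69 and 7.35 on drought arrays 1 to 3 and 1.49, 0.18 and 0.75 on heat arrays 1 to 3.

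The PP2C phosphatases and the enzymes of abscisic acid metabolism were mostly higher in drought. Of 14 PP2C transcripts, 10 were higher in drought and 3 higher in heat (median -2.37), against 4 and 1 without replicate 1. PP2CA (Sb03g029890.1), a negative regulator of abscisic acid signalling, was at -0.82, -2.13 and -0.01 in drought and was not well above background on any heat array, where it measured -8.34, -8.28 and -8.15. The bound was thus at least 62.0-fold, higher in drought, and limma on the measured ratio gave an adjusted p of 0.0029. The brightest PP2C of the list (Sb02g022090.1) had 4.06, 3.50 and 4.93 in drought and 1.40, 1.70 and 1.91 in heat, a ratio of -2.49. Sb04g031580.1 was the most marked exception, with -3.55, -4.61 and -1.93 in drought and 1.99, 1.33 and 1.25 in heat, a ratio of 4.89. Heat exceeded drought at least 4.23-fold for Sb02g034660.1, and Sb09g017821.1 had a ratio of 1.16 that 7 of the alternative settings took below the threshold. Without replicate 1, the calls of Sb02g022090.1 (adjusted p = 0.068), Sb04g031580.1 (0.059) and Sb09g017821.1 (0.20) were lost.

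Of 5 transcripts for making or breaking down abscisic acid, 4 were higher in drought and 1 higher in heat, against 2 and 1 without replicate 1. NCED3 (Sb01g013520.1), whose Arabidopsis counterpart catalyses the limiting step of synthesis under drought, stood at -2.04, -3.23 and -1.32 in drought and at -4.73, -5.50 and -2.69 in heat. The groups overlapped across pairs only in that heat 3 lay above drought 2. Within each pair drought was higher, with a ratio of -2.10 (-2.93 to -1.27, adjusted p = 0.012) that was not called without the pairing (0.086), without replicate 1 (0.086) or with normexp (0.17). ABA4 (Sb03g007320.1), which acts earlier in synthesis, had 3.81, 3.11 and 4.40 in drought and 1.13, 1.27 and 1.5 in heat, a ratio of -2.47 (not called without replicate 1, adjusted p = 0.064). ABA2 (Sb06g009610.1), which acts later, was at least 6.98-fold higher in drought (adjusted p = 0.0034), and had a ratio of 0.10 with no call under normexp. The CYP707A enzymes break abscisic acid down, and the 2 of them went opposite ways. CYP707A4 (Sb02g026600.1) had -0.72, -1.66 and 0.92 in drought and 4.78, 4.40 and 4.60 in heat, a ratio of 5.08 (3.75 to 6.41). CYP707A1 (Sb04g030660.1) had -2.28, -3.05 and -1.27 in drought and -5.82, -5.94 and -5.40 in heat, a ratio of -3.52, which normexp reduced to -1.18 with no call (adjusted p = 0.088).

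Among transcription factors, homeobox genes were mainly higher in drought. Of 10, 7 were higher in drought and 1 was higher in heat (median -2.22), against 4 and 1 without replicate 1. HB-3 (Sb02g043300.1) stood at 0.79, 0.55 and 2.11 in drought and at -5.90, -7.30 and -8.58 in heat, where 1 array was well above background, a measured ratio of -8.41. ATHB40 (Sb01g043910.1) had a ratio of -7.97, again with 1 heat array well above background. ATHB-7 (Sb04g033380.1), a factor induced by abscisic acid in Arabidopsis, was measured on all arrays, with 2.96, 2.02 and 3.95 in drought and -2.74, -2.61 and -1.65 in heat (-5.31, adjusted p = 0.0028). The exception was AtHB31 (Sb08g006490.1), at 3.61, 4.26 and 3.08 in drought and 7.0, 7.05 and 5.82 in heat (2.97).

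The bZIP factors held 3 transcripts higher in drought, 1 higher in heat and 6 not called. GBF3 (Sb03g030050.1), which binds the G-box, was at -0.56, -0.85 and 0.89 in drought and at -5.52, -6.23 and -4.15 in heat, a ratio of -5.13 (-5.66 to -4.60). The 2 transcripts annotated bZIP58 went opposite ways: Sb07g028900.1 had a ratio of 3.35, and Sb04g006180.1 was at least 8.23-fold higher in drought but had a ratio of 0.09 with no call under normexp. ABF2 (Sb04g034190.1), a factor of abscisic acid response elements, was at 2.53, 1.70 and 3.11 in drought and 1.78, 1.97 and 2.37 in heat. These overlapped, and the interval of its ratio of -0.41 ran from -1.16 to 0.35. That of bZIP44 (Sb02g020760.1, ratio -0.61) ran from -1.62 to 0.41.

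AP2/ERF factors, which include the DREB proteins that bind drought response elements, were divided, with 10 of 22 higher in heat and 6 higher in drought (8 and 3 without replicate 1). RAP2.6 (Sb06g016710.1) was well above background on 1 drought array and had 1.76, 1.02 and 0.64 in heat, a measured ratio of 8.20 (not called without replicate 1, adjusted p = 0.054). DREB1A (Sb07g025210.1), known for cold and dehydration responses, was at -5.10, -5.97 and -3.28 in drought and at 0.97, 1.72 and 1.56 in heat, a ratio of 6.20 (4.70 to 7.71, adjusted p = 0.0049). On the other side, an AP2 domain protein (Sb09g021016.1) had 1.89, 0.42 and 2.06 in drought and -6.64, -7.19 and -7.82 in heat, where 1 array was well above background (-8.67). Rap2.6L (Sb04g021160.1) had a ratio of -4.67 and RAP2.12 (Sb02g025530.1) one of -2.56, both not called without replicate 1 (adjusted p = 0.062 and 0.050).

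NAC, MYB and WRKY factors were also divided. Of 15 NAC transcripts, 4 were higher in heat and 5 higher in drought, each reduced to 1 without replicate 1. A NAM family protein (Sb08g001520.1) and anac016 (Sb02g007960.1) had ratios of 6.56 and 4.57, whereas 2 transcripts annotated anac025 (Sb02g043210.1 and Sb01g036560.1) had -5.22 and -3.98. The calls of Sb08g001520.1 (adjusted p = 0.051) and Sb01g036560.1 (0.053) were lost without replicate 1. ATAF1 (Sb09g020750.1) had a ratio of -1.01 (-2.16 to 0.13) and ATAF2 (Sb05g005450.1) one of 0.63 (-0.14 to 1.39), neither of them called. ATAF1 was called higher in drought with all 12 arrays in the fit (adjusted p = 0.045), with spike-in scaling (-1.3, 0.031) and without replicate 2 (-1.58, 0.021). Of 21 MYB transcripts, 8 were higher in heat and 6 higher in drought (5 and 1 without replicate 1), from MYB3R-4 (Sb03g000930.1) at 4.92 and a family member (Sb01g012460.1) at 4.14 to MYB120 (Sb10g023665.1) at -2.92 and a family member (Sb06g026500.1) at -3.12. Without replicate 1, MYB3R-4 (adjusted p = 0.056) and MYB120 (0.053) were not called, and with normexp MYB120 had -0.06 (0.92). Of 12 WRKY transcripts, 2 were higher in heat and 5 higher in drought (2 and 0 without replicate 1). WRKY40 (Sb02g024765.1) had a ratio of 4.97, and WRKY46 (Sb08g002590.1) had a bound of at least 7.13-fold, higher in heat. WRKY71 (Sb09g028660.1) and WRKY27 (Sb03g028440.1) had -2.42 and -1.90, both lost with normexp (adjusted p = 0.14 and 0.42) and without replicate 1 (0.052 and 0.13).

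Enzymes and carriers of the leaf surface were largely higher in drought. Of 13 transcripts for wax and very long chain lipids, 9 were higher in drought and 1 higher in heat, with a median of -2.66 (4 and 0 without replicate 1). With normexp, 4 were higher in drought and 1 higher in heat, with a median of -0.78. Taken relative to control, the median of the list was 1.34 in drought and -1.49 in heat, so the gap held a fall in heat as well. CER3 (Sb04g005330.1), required for wax alkanes in Arabidopsis, had 0.79, -0.31 and 0.40 in drought and -4.09, -5.07 and -3.38 in heat, a ratio of -4.47 (-5.25 to -3.70, adjusted p = 0.0032). KCS enzymes lengthen fatty acids. KCS20 (Sb01g046290.1) had -3.83 with 2 heat arrays well above background, KCS6 (Sb03g023131.1) had -2.71, and KCS4 (Sb09g028860.1) had 2.51. The calls of KCS6 and KCS4 were lost without replicate 1 (adjusted p = 0.074 and 0.083), and that of KCS20 with normexp (-0.72, 0.12). Of 9 lipid transfer proteins, 6 were higher in drought and 1 higher in heat (2 and 0 without replicate 1). The extremes were Sb09g027600.1 at -3.81 and Sb03g037210.1 at 2.07, the latter with no call without replicate 1 (adjusted p = 0.087).

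**Figure D3:**
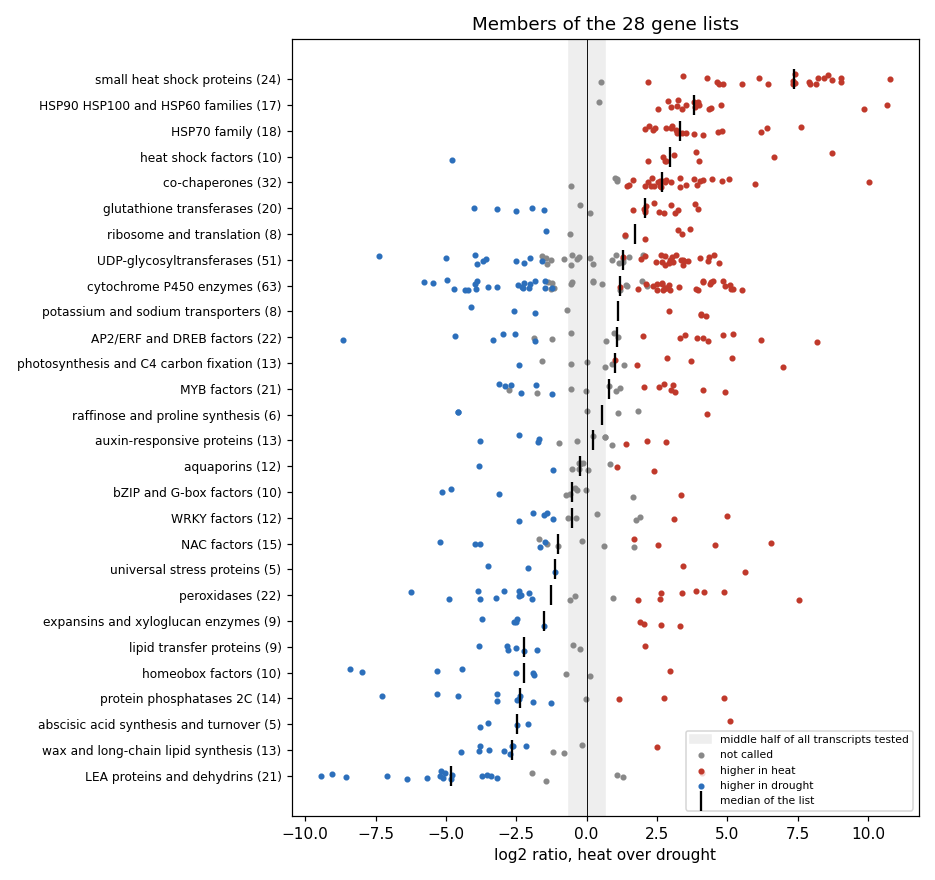
Log2 ratio of heat over drought (horizontal axis) for each tested member of 28 gene lists (vertical axis, number tested in brackets), ordered by the median (black bar); red and blue points were called higher in heat and in drought, grey points were not called, and the grey band runs from -0.65 to 0.66, the quartiles of all transcripts tested. Small heat shock proteins lie farthest to the right with a median of 7.36 and LEA proteins farthest to the left with -4.81.

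Sugars and proline act as compatible solutes. P5CS2 (Sb03g039820.1), of proline synthesis, was at 3.35, 1.83 and 4.03 in drought and at -1.92, -1.72 and -0.93 in heat, 24.1-fold higher in drought (11.7 to 49.4, adjusted p = 0.0044). The 2 transcripts annotated SIP2, a galactosidase that acts on raffinose, differed from each other. Sb02g006320.1 had 5.74, 5.37 and 6.32 in drought and 1.07, 1.36 and 1.34 in heat, a ratio of -4.56, and Sb01g004130.1 had 2.99, 3.39 and 4.31 in drought and 3.28, 3.58 and 3.82 in heat, a ratio of 0.00 (-0.65 to 0.64). GolS1 (Sb01g037090.1), which makes the galactinol used for raffinose, was high in both, with 5.56, 3.26 and 6.29 in drought and 6.54, 6.85 and 7.25 in heat. Its ratio of 1.84 (0.26 to 3.43) did not pass (adjusted p = 0.075), but did with all 12 arrays in the fit (0.015). Stachyose synthase (Sb05g026330.1, annotated STS) had a bound of at least 14.5-fold, higher in heat (adjusted p = 0.0032).

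Membrane transport differed by transcript. Of 12 aquaporins, which are water channels, 2 were higher in heat, 2 were higher in drought and 8 were not called (1 and 1 called without replicate 1). PIP2B (Sb04g026650.1) had 2.37, 2.05 and 3.00 in drought and 4.54, 4.76 and 5.33 in heat (2.40, 1.85 to 2.96). A second PIP2B (Sb06g022840.1) passed narrowly at 1.06, and not without the pairing (adjusted p = 0.056), without replicate 1 (0.15) or without replicate 2 (0.072). Nor was it called with normexp (0.91, adjusted p = 0.089), quantile normalization (0.64, 0.089) or spike-in scaling (0.77, 0.25). BETA-TIP (Sb06g023240.1) had -3.81, with 2 heat arrays well above background, and -0.65 with no call under normexp (adjusted p = 0.31). PIP1;5 (Sb04g032430.1) was bright in both groups, at 6.57, 6.0 and 6.77 in drought and 6.16, 5.78 and 5.82 in heat (-0.53, -1.14 to 0.09). It was called higher in drought with quantile normalization (-1.22, adjusted p = 0.028). Of 8 potassium and sodium transporters, 4 were higher in heat and 3 higher in drought (2 and 1 without replicate 1). KCO1 (Sb05g015110.1, 4.23) and the potassium channel KAT1 (Sb03g034980.1, 4.08) were on the heat side, with 1 and 2 drought arrays well above background. HKT1 (Sb06g027900.1, -4.10) and 2 transcripts annotated HAK5 (Sb06g014930.1, -1.83, and Sb07g027710.1, at least 1.61-fold) were on the drought side. With normexp, HKT1 had -1.28 (adjusted p = 0.094) and Sb07g027710.1 had 1.26 (0.15), without a call. KAT1 (adjusted p = 0.097), HKT1 (0.096) and Sb06g014930.1 (0.11) were not called without replicate 1.

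Families tied to detoxification held calls on both sides, to be read against the 38.6% and 33.8% of all transcripts with an identifier. Of 20 glutathione transferases, 13 were higher in heat and 5 higher in drought, with a median of 2.08, against 4 and 0 without replicate 1. The microsomal transferases Sb01g010550.1 and Sb01g010540.1 had ratios of 3.95 and 3.84, and GSTU25 (Sb01g005990.1) had 5.16, 5.62 and 6.24 in drought and 7.67, 7.81 and 7.73 in heat (2.07). GSTU18 (Sb01g030790.1) had -4.01. The calls of GSTU25 and GSTU18 were lost without replicate 1 (adjusted p = 0.077 and 0.097). Of 22 transcripts with a peroxidase annotation, 8 were higher in heat and 11 higher in drought (5 and 3 without replicate 1). Ascorbate peroxidase APX3 (Sb06g001970.1), which removes hydrogen peroxide, was at -4.47, -4.88 and -4.05 in drought and at 2.98, 2.74 and 3.50 in heat. It was 186-fold higher in heat (132 to 261, adjusted p = 0.0020), with an SD of 0.09 on the log2 scale over pairs. Another pair annotated as peroxidases, Sb01g020830.1 and Sb10g021620.1, had -6.24 and -2.42 and were not called without replicate 1 (adjusted p = 0.058 and 0.053). Near-identical family members may share signal on one probe in these families, in cytochrome P450 enzymes and in glycosyltransferases. Of 63 cytochrome P450 enzymes, 28 were higher in heat and 21 higher in drought (13 and 8 without replicate 1), from CYP81D5 (Sb01g007420.1) at 5.51 to CYP71B2 (Sb05g005480.1), at least 15.1-fold higher in drought, and CYP87A2 (Sb02g008740.1), at least 13.5-fold higher. Neither of these 2 was called with normexp (adjusted p = 0.23 and 0.47), nor was CYP71B2 without replicate 1 (0.075). Of 51 UDP-glycosyltransferases, 23 were higher in heat and 10 higher in drought (7 and 2 without replicate 1). Sb02g034100.1 had 4.71, and UGT85A2 (Sb04g023920.1) had -7.39 with 2 heat arrays well above background and no call without replicate 1 (adjusted p = 0.074).

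Photosynthetic transcripts held 6 of 13 higher in heat, 1 higher in drought and 6 not called (4 and 0 without replicate 1). Among all transcripts with an identifier, 38.6% were higher in heat and 33.8% higher in drought. The one annotated RCA (Sb05g027880.1), Rubisco activase, which frees Rubisco of bound inhibitors, had -2.35, -3.02 and -1.63 in drought and 4.31, 4.45 and 5.11 in heat. It was 124-fold higher in heat (78.7 to 196, adjusted p = 0.0020). PPCK1 (Sb06g022690.1), a kinase of phosphoenolpyruvate carboxylase, had a ratio of 5.15, carbonic anhydrase (Sb03g029180.1) one of 2.84 and the carboxylase PPC1 (Sb02g021090.1) one of 1.78. PSBR (Sb02g002830.1), of photosystem II, had 5.70, 5.71 and 5.88 in drought and 6.80, 6.78 and 6.76 in heat. The difference of 1.01 (0.52 to 1.51) was near the limit and was not called in 6 of the alternative settings. RBCS1A (Sb05g003480.1), the small subunit of Rubisco, and LHCB6 (Sb06g032690.1), an antenna protein, had 0.91 (-0.27 to 2.08) and 1.33 (0.00 to 2.67), without a call. LHCB6 was called higher in heat without replicate 2 (1.97, adjusted p = 0.022). RBCS1A and LHCB6 had control means of 4.33 and 2.04, above their means in drought (2.36 and 0.1) and heat (3.26 and 1.44). The control mean of PSBR, 4.18, lay below both stresses. PPDK (Sb01g031660.1) was at least 3.41-fold higher in drought (adjusted p = 0.010), but its ratio was 0.79 with no call under normexp and its call was lost without replicate 1 (-2.13, 0.077). The calls of PPC1 (0.10) and PSBR (0.16) were also lost without replicate 1.

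The remaining lists are given by their counts and their extremes. Of 13 auxin-responsive transcripts 3 were higher in heat and 4 higher in drought (1 and 0 without replicate 1), between Sb04g033550.1 at 2.82 and Sb02g031700.1 at -3.78. Among 9 cell wall loosening transcripts, 4 xyloglucan enzymes were higher in heat, led by Sb04g010980.1 at 3.30, and 5 expansins were higher in drought, led by EXPB4 (Sb01g013550.1) at -3.73, though without replicate 1 only 1 transcript of the list was called. Of 5 universal stress proteins, 2 were higher in heat and 3 higher in drought (1 and 1 without replicate 1), between Sb04g034630.1 at 5.61 and Sb03g008310.1 at -3.51, the latter at -1.13 with no call under normexp (adjusted p = 0.11). Of 8 translation transcripts, 5 were higher in heat and 1 higher in drought (3 and 0 without replicate 1), between EIF4A1 (Sb04g007840.1), at least 4.20-fold higher in heat, and a ribosomal protein L1 (Sb09g019170.1) at -1.46. Without replicate 1, Sb02g031700.1 (adjusted p = 0.16), Sb04g010980.1 (0.097) and Sb09g019170.1 (0.15) were not called.

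Outside the lists, a pectinesterase (Sb06g030310.1), an enzyme of cell wall pectin, had -5.47, -6.03 and -4.43 in drought and 3.36, 2.46 and 4.55 in heat, a ratio of 8.77 (8.23 to 9.31, adjusted p = 0.0020). In the other direction, an inner membrane translocase of mitochondria (Sb01g037560.1) had 3.32, 1.78 and 4.35 in drought and -4.83, -5.84 and -4.87 in heat (-8.33). MLP423 (Sb06g027090.1) had 4.15, 3.32 and 1.81 in drought and -3.92, -4.79 and -4.58 in heat (-7.52). Both sides held transcripts detected in one stress alone. Among calls, 284 transcripts higher in heat were well above background on no drought array, with a median bound of 3.55-fold, and 179 higher in drought were so on no heat array, with a median bound of 2.93-fold. A lectin protein kinase (Sb08g020850.1) had a bound of at least 87.4-fold, higher in heat and an RPM1-like resistance protein (Sb02g038425.1) at least 7.74-fold higher. A transketolase (Sb06g004280.1) was at least 140-fold higher in drought, with 0.36, -0.58 and 0.78 there and -7.71, -8.49 and -9.01 in heat.

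Of the transcripts in both of the study's tables of largest increases, for drought and for heat, 6 had an annotation, and here the 2 stresses were compared for them. FTSH6 (Sb10g008130.1), a chloroplast protease, was higher in heat, with 2.09, 0.78 and 4.30 in drought and 5.71, 5.20 and 6.28 in heat (3.34, 2.01 to 4.67). An EC metallothionein-like protein (Sb01g030345.1, 2.22) and EDL3 (Sb09g024255.1, 1.88) were also higher in heat. All 3 calls were lost without replicate 1 (adjusted p = 0.083, 0.16 and 0.080). A phosphatidylethanolamine-binding protein (Sb09g023040.1) had 1.41 (-0.19 to 3.00) and a hydrophobic protein (Sb01g038670.1) -0.23 (-1.71 to 1.26), and neither was called. The former was called higher in heat with all 12 arrays in the fit (adjusted p = 0.038) and without replicate 3 (2.1, 0.044). The tyrosine decarboxylase (Sb07g003040.1) could not be placed: its levels were 1.5, -4.78 and 2.88 in drought and -2.41, -0.73 and -2.49 in heat, a ratio of -1.74 with an interval of -6.84 to 3.35. Drought 2 lay below all heat arrays, and the other drought arrays above them. Without replicate 2 its ratio was -4.64 (adjusted p = 0.0047).

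The control arrays show which stress departed from the unstressed leaf. Among transcripts higher in heat, the control mean lay nearer to drought in 2704 and nearer to heat in 564. It lay between the stress means in 2107 transcripts, below both in 1127 and above both in 34. The median difference from control was 1.62 in heat and -0.26 in drought. Among transcripts higher in drought, the control mean lay nearer to drought in 2070 and nearer to heat in 892, and it was above both stress means in 1030. There the median difference from control was -1.28 in heat and 0.31 in drought. Without replicate 1, the control mean lay nearer to drought in 629 of the 652 transcripts higher in heat and nearer to heat in 183 of the 390 higher in drought. RAP2.12 and WRKY71 had control levels (1.82 and -2.79) between those of drought and heat, and the PIP2B and HSP70 transcripts named above had control levels under or near those of drought.

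On the combined-stress arrays, which did not enter the comparison, transcripts from the 2 sides behaved differently. limma called 4244 transcripts higher (19.3% of 21992 tested) and 4566 lower (20.8%) in combined stress than in control. Of the transcripts higher in heat than drought, 3073 were tested there, 56.5% were higher in combined stress and 2.31% lower, with a median log2 ratio of 1.34. Of those higher in drought, 2878 were tested, 17.9% were higher and 39.9% lower, with a median of -0.68 against -0.10 over all tested. Under other settings both sides were called anew, so their sizes changed too. In the fit used above, 1736 of the 3268 transcripts higher in heat were higher in combined stress, against 1127 of 2470 with spike-in scaling. Of the 2962 transcripts higher in drought, 1147 were lower, against 268 of 1010 with normexp. Without replicate 1 these counts were 442 of 652 and 86 of 390. The share over all transcripts tested was not taken under these settings. Lists with most calls on the drought side differed here: 18 of 19 LEA transcripts and 12 of 14 PP2C transcripts were higher in combined stress than in control, against 5 of 9 homeobox factors, 5 of 8 lipid transfer proteins and 3 of 5 transcripts of abscisic acid metabolism, while of 13 wax transcripts 5 were higher and 5 lower. Also higher were 23 of 24 small heat shock proteins and all 18 HSP70 transcripts. List members were picked as changed in drought or heat against these same control arrays, so the list counts are not independent evidence. The share over all transcripts with an identifier was not taken for combined stress. PP2CA and the transketolase, not well above background in heat, had mean levels of -3.49 and -0.44 in combined stress and of -8.43 and -8.90 in control. ABA2 and CYP707A1, on the contrary, had mean levels of -5.56 and -4.03 in combined stress and -3.56 and -3.58 in control.

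**Figure D4:**
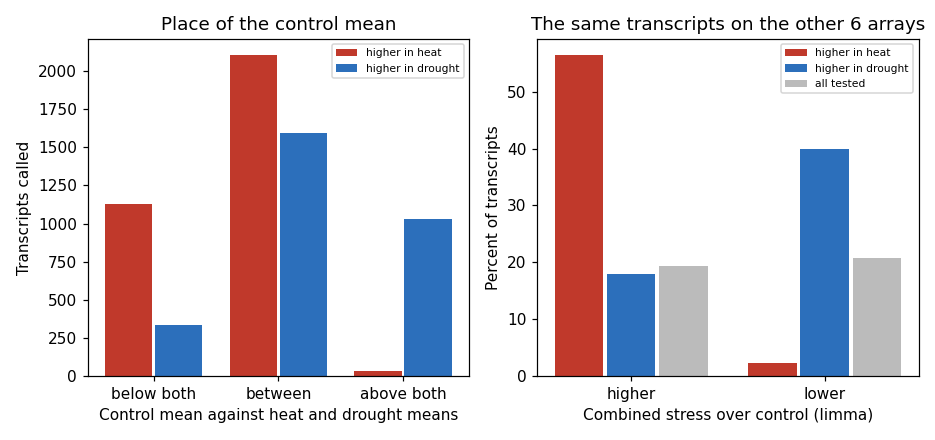
Left, number of transcripts called higher in heat (red) or in drought (blue) whose control mean lies below both stress means, between them or above both. Right, percent of the same transcripts that limma called higher or lower in combined stress than in control, with all transcripts tested in grey; 56.5% of the heat side and 17.9% of the drought side were higher, against 19.3% of all.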

How the data were processed

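Total RNA was labelled with Cy3 and hybridized to Agilent 1-colour arrays. The authors deposited, per array, spot intensities from Agilent Feature Extraction, which are background-corrected and were left unscaled. A table of normalized log2 values made in GeneSpring was deposited too, by Agilent's standard scenario for such arrays, which served as an alternative and to join names.

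Processed signals were put on the log2 scale and each array was centred on the 75th percentile of its 43803 probe spots, outlier spots were dropped, and spots of a probe were averaged. For 108 transcripts with several probes, the brightest was used. limma 3.58.1 (R 4.3.3, data.table in version 1.17.8) fitted the 6 heat and drought arrays with the replicate number as a block, and separately the control and combined arrays. Adjusted p-values are Benjamini-Hochberg values over all transcripts tested. Calls needed a ratio of over 2-fold at an adjusted p under 0.05. With 3 arrays a group, precision is limited by their number.

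Pairing is by replicate number. Arrays of the same number shared a slide, and the study's methods describe the replicates as triplicate experiments. Slide and experiment cannot be told apart in the pairing. Over 22052 transcripts, deviations from the group means of the same-numbered arrays correlated at 0.23, 0.21 and 0.14.

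The array files number their transcripts. The 2965 identifiers in the supplementary tables read, of which the heat tables were held in part, were joined by matching each transcript's per-replicate folds to ratios of the deposited log2 values within 2e-05. Of these, 2570 have an annotation and 2201 name a protein, mostly after Arabidopsis. Fold changes of those tables served only for this match. Named transcripts were the 10 largest ratios in each direction on transcripts well above background on all 6 arrays, the 5 largest bounds in each direction, in each list the 3 brightest members, the 2 largest called ratios in each direction and members called against the list's median, those in both tables of largest increases under single stresses, and those named in the study's text. The text gives 120 transcripts, chosen among these apart from 2 named for lacking a call. Members and lists were chosen with earlier results of these data known. Alternatives were the pairing, 12 arrays in the fit, position on the slide, background (normexp with an offset of 50, on the median signal), scaling, detection filter, outlier spots and leaving out each replicate. Sequences, promoters and genome positions were not analysed here.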

Additional observations from a re-analysis of the deposited data

How the results depend on the processing

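Counts of transcripts higher in heat and higher in drought were 3268 and 2962. Without the replicate block, that is without the pairing, they were 3163 and 2769, and the calls of NCED3, a PIP2B, a PP2C and a ribosomal protein L1 were lost. They were 3631 and 3288 with 12 arrays in the fit, 2680 and 2337 with position on the slide added, 3117 and 3051 with quantile normalization, 3781 and 2493 with scaling on the median, and 3307 and 2909 on the deposited values. Filtering for detection on all 6 arrays gave 2664 and 2542, no filter 3167 and 2621.

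With normexp, 1010 transcripts were higher in drought, of which the control mean was nearer to heat in 454 and 268 were lower in combined stress. The 10th percentile of the level was then -2.12 and -2.78 on heat 1 and heat 3, against -3.94 on heat 2 and -3.92 to -4.01 on drought arrays. With spike-in scaling, 1127 of the 2470 transcripts higher in heat were higher in combined stress, and 2340 of the 3930 higher in drought were lower.

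Leaving out replicates 1, 2 or 3 in turn gave 652 to 3477 transcripts higher in heat and 390 to 2967 higher in drought. The lowest values were without replicate 1, though 2 pairs remain in each case. Of these transcripts, the control mean was nearer to drought in 629 to 3060 and nearer to heat in 183 to 1308, and 442 to 2181 were higher and 86 to 1587 lower in combined stress. Calls of Sb01g030345.1, Sb02g002830.1, Sb02g031700.1, Sb03g028440.1, Sb06g022840.1 and Sb09g017821.1 were lost without replicate 2 (adjusted p from 0.053 to 0.089) and that of Sb09g019170.1 without replicate 3 (0.054). The fold rule gave 2501 to 3069 and 2305 to 2547.

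The fold rule counted 1323 and 826 transcripts with a limit of 3-fold and 3659 and 3434 with 1.5-fold, and 1524 higher in heat with spike-in scaling.

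Of the ratios of the 120 named transcripts, 1656 of 1765 values under 15 alternatives kept direction and side of the threshold, 39 of the others were calls lost without replicate 1 and 19 calls lost with normexp. The ratio of 0.00 of Sb01g004130.1 became 0.36 with position on the slide, 0.12 with median scaling, 0.01 on deposited values and from -0.15 to 0.24 without 1 replicate. With normexp, Sb01g031660.1 measured 0.79, Sb04g006180.1 0.09, Sb06g009610.1 0.10 and Sb07g027710.1 1.26, each of them on no heat array well above background. Without 1 replicate, Sb01g038670.1 ranged from -0.93 (replicate 2 out) to 0.48 (replicate 3 out), Sb02g034760.1 from -0.05 (3 out) to 1.37 (2 out) and Sb07g003040.1 from -4.64 (2 out) to 0.07 (3 out). List medians changed sign for aquaporins (0.20 with position on the slide), expansins, peroxidases and WRKY factors (normexp), auxin-responsive proteins (-0.07 with spike-in scaling, and without replicate 1), WRKY factors (0.33 without replicate 2), and, with detection on all 6 arrays, MYB factors (-0.03) and potassium and sodium transporters (-1.26 against 1.11). Except where stated, the cause was not tested.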

Other observations

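The drought arrays differed from each other. Drought 2 was over 4-fold below both other drought arrays in 123 transcripts and above both in 33, and drought 3 was so in 225 and 64. Drought 1 was so in 3 and 10. For the small heat shock proteins, the list median relative to the control mean was 0.39, 0.30 and 1.90 on drought arrays 1 to 3, 7.22, 7.37 and 7.69 on heat arrays, and 8.61, 8.22 and 8.94 on combined-stress arrays.

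Of the 284 transcripts higher in heat and well above background on no drought array, 162 were so on no control array either and 146 were well above background on all combined-stress arrays. Of the 179 such transcripts higher in drought, 38 were on no control array and 89 on no combined-stress array.

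Among 66 transcripts with several probes well above background on all 6 arrays, the probes gave 1 direction in 60, and the largest gap between probes was 4.42 on the log2 scale.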
